A study of Mus musculus with 32 samples.

Results

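The genes described here are 10 genes with which a cell detects misplaced DNA and RNA and receives interferons, taken from a list of gene symbols and read across 32 bulk RNA-seq libraries of mouse tumours. The list holds the sensors Cgas and Ifih1, the adaptor Mavs, the kinase Tbk1, the transcription factor Irf3, the exonuclease Trex1 and the receptor chains Ifnar1, Ifnar2, Ifngr1 and Ifngr2. These 10 were found among the 55103 genes measured, and all 10 passed the filter on low counts, which left 20474 genes to test. They were picked by symbol, with earlier results of these data known.

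Every library came from a tumour of KPC36, a mouse cell line whose cell type is labelled as malignant; KPC lines in general are made from pancreatic tumours of mice. The study asked how tumours irradiated with carbon ions and tumours irradiated with photons differ in gene expression. Each beam had 8 irradiated tumours and 8 untreated controls of its own, and tumours were taken 4 or 7 days after treatment, but the labels do not say which library belongs to which day. Neither the dose, the host mouse strain, the site of the tumour nor the age of the mice is given in the sources used here. Nor do the labels say that each library is a separate animal, so p-values measure the spread between these libraries. The estimated read counts came to between 13891863 and 71645903 per library, with the lowest total in replicate 3 of the photon-irradiated group. Epithelial markers were present in every library (none of 8 at a count of 0), as were those of fibroblasts, macrophages and endothelium, while T cell markers summed to only 4.24 to 15.9 CPM (read counts scaled to a common library size) and Cd3d, Cd3g and Cd8b1 were at 0 in some libraries. In such bulk samples fewer cells of a type and less RNA per cell cannot be told apart.

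The cGAS enzyme binds double-stranded DNA in the cytosol and makes the messenger cGAMP, which activates STING, and MDA5, the product of Ifih1, binds long double-stranded RNA and signals through MAVS on mitochondria. Both routes reach the kinase TBK1, which phosphorylates IRF3, and IRF3 then switches on type I interferon genes. TREX1 degrades cytosolic DNA and so limits the cGAS route. Type I interferons bind IFNAR1 and IFNAR2, and interferon gamma binds IFNGR1 and IFNGR2; JAK kinases and STAT factors carry the signal from both receptors to interferon-stimulated genes, and radiation that leaves DNA in the cytosol is known to engage this circuit in tumours.

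The DNA upstream of the start site is shown for 4 of the genes: Ifih1 and Cgas, whose levels followed interferon-stimulated genes between tumours, Ifngr1, which differed between the untreated tumours of the arms, and Ifnar2, the single member with a match to a STAT site. Each is the 250 bases before the RefSeq start site (GRCm38.p6, the build that mm10 names), written 5′ to 3′ on the gene's own strand, with the matched motif in capitals. All 10 genes matched the RefSeq promoter table. The windows lie at chr2:62646256-62646505 (minus strand) for Ifih1, chr9:78443238-78443487 (minus strand) for Cgas, chr10:19591699-19591948 (plus strand) for Ifngr1 and chr16:91372533-91372782 (plus strand) for Ifnar2.
Ifih1: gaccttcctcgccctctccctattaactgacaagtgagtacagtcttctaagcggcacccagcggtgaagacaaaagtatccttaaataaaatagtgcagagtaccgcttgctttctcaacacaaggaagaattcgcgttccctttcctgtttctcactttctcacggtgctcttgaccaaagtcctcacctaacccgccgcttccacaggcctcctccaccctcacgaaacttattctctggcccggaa
Cgas: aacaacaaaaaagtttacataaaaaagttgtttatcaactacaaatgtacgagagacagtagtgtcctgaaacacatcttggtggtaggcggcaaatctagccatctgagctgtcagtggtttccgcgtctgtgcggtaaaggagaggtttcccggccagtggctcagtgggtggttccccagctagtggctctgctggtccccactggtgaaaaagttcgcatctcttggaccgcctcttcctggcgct
Ifngr1: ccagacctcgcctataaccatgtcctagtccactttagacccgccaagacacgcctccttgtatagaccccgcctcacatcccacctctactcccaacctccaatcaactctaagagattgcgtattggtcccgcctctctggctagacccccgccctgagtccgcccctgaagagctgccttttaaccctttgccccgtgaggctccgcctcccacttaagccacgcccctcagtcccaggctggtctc
Ifnar2: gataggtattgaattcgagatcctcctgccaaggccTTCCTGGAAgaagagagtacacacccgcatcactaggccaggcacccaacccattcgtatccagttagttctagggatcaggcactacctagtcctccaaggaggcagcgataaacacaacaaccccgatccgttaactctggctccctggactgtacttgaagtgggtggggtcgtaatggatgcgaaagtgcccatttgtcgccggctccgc
Windows of all 10 genes were searched on both strands for the interferon-stimulated response element, GAAANNGAAA, and for the gamma-activated site, TTCNNNGAA, which reads alike on both strands. No member's window held the first, which 3.46% of 27025 genes hold in a window of this length. The second matched once, in Ifnar2, as TTCCTGGAA with its first base 214 bases before the start site; 8.13% of the 27025 genes hold a match. The windows of Ifih1 and Cgas held 11 and 9 CpG steps, against a median of 6 over 32851 promoters. Most other members also exceeded that median: Ifngr1 and Ifnar2 had 11 each, Mavs 15, Irf3 16, Ifnar1 19, Ifngr2 25 and Tbk1 31. Trex1 had separate windows with 7 and 4. A match is a matter of letters, and was not tested as a binding site.

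Levels of the 10 genes spanned about 2 orders of magnitude. Compared per kilobase of exon, Ifngr1 was the highest of the 10 in each group, with a mean of 75.4 ± 8.12 CPM per kb in the carbon-arm controls and 54.4 ± 4.50 in the photon-arm controls (SD, n = 8 each). Ifngr2 came next with 35.1 ± 4.82 and 28.9 ± 2.18 CPM per kb, then Ifnar1 with 24.4 ± 2.20 and 24.6 ± 1.66. Within the interferon gamma receptor the IFNGR1 chain's messenger was therefore the more abundant per kilobase, by 1.11 ± 0.21 (log2 ratio) in the carbon-arm controls and 0.91 ± 0.14 in the photon-arm controls, and the ratio was above 0 in every library (0.69 at the lowest). The type I receptor had a like imbalance toward Ifnar1, with a mean log2 ratio of Ifnar1 to Ifnar2 per kilobase of 0.94 to 1.13 in the 4 groups. Mavs, Ifnar2, Irf3, Tbk1 and Trex1 followed in the carbon-arm controls at 11.3 ± 1.15, 11.1 ± 1.08, 9.60 ± 0.45, 8.85 ± 0.49 and 6.84 ± 1.06 CPM per kb, and neighbours in that order differed by less than the sum of their SDs, except Tbk1 and Trex1. The sensors were the least abundant: Ifih1 stood at 1.61 ± 0.35 and Cgas at 0.64 ± 0.14 CPM per kb in the same controls, the ninth and the tenth place in all groups.

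**Figure D1:**
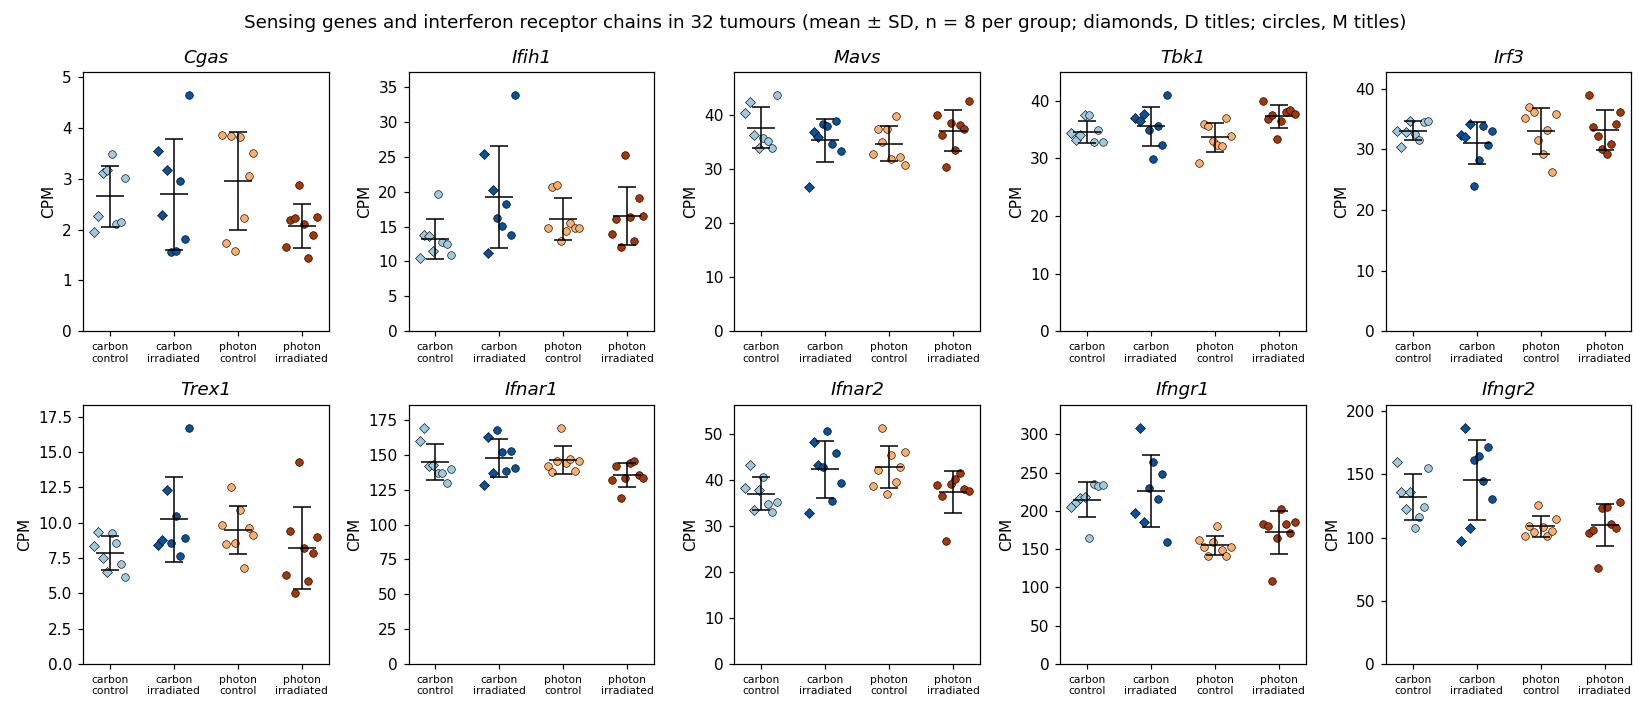
CPM of each of the 10 genes (y axis, linear from 0) in the 32 libraries by group (x axis); points are libraries, diamonds mark titles beginning with D and circles titles beginning with M, and bars give the mean ± SD of 8 libraries. The groups overlap in every panel, the mean of Ifngr1 is higher in both carbon-arm groups than in either photon-arm group, and 1 carbon-irradiated library (replicate 8) is the highest of its group for Cgas, Ifih1, Tbk1 and Trex1.

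After carbon ions none of the 10 genes passed the test (edgeR quasi-likelihood test, Benjamini-Hochberg adjusted p under 0.05 over all 20474 genes), and no gene of any kind did, so the background was 0%. At an unadjusted p under 0.05 there were 1177 genes (5.75%), and DESeq2 called 17, none of them a member. Of the members 3 had an unadjusted p under 0.05, all with a higher mean: Ifih1, Trex1 and Ifnar2. After photons 781 genes passed, 3.81% of those tested, and again no member was among them; 3 members had an unadjusted p under 0.05, Tbk1 with a higher mean and Cgas and Ifnar2 with lower ones, beside 21.5% of all genes (4410). DESeq2 called no member. The median log2 fold change of the 10 was 0.06 after carbon ions and 0.01 after photons, beside 0.01 and 0.00 over all genes tested. Averaged over both beams, 158 genes passed (0.772%) with no member, 2 of which, Ifih1 and Tbk1, had an unadjusted p under 0.05, beside 14.3% of all genes. For the difference between the beams' effects 16 genes passed (0.0781%), again without a member, and Ifnar2 and Trex1 had an unadjusted p under 0.05, beside 13% of all genes. After photons, over both beams and for the difference, these counts of 10 are near the shares over all genes. DESeq2 called no member in these contrasts either.

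**Figure D2:**
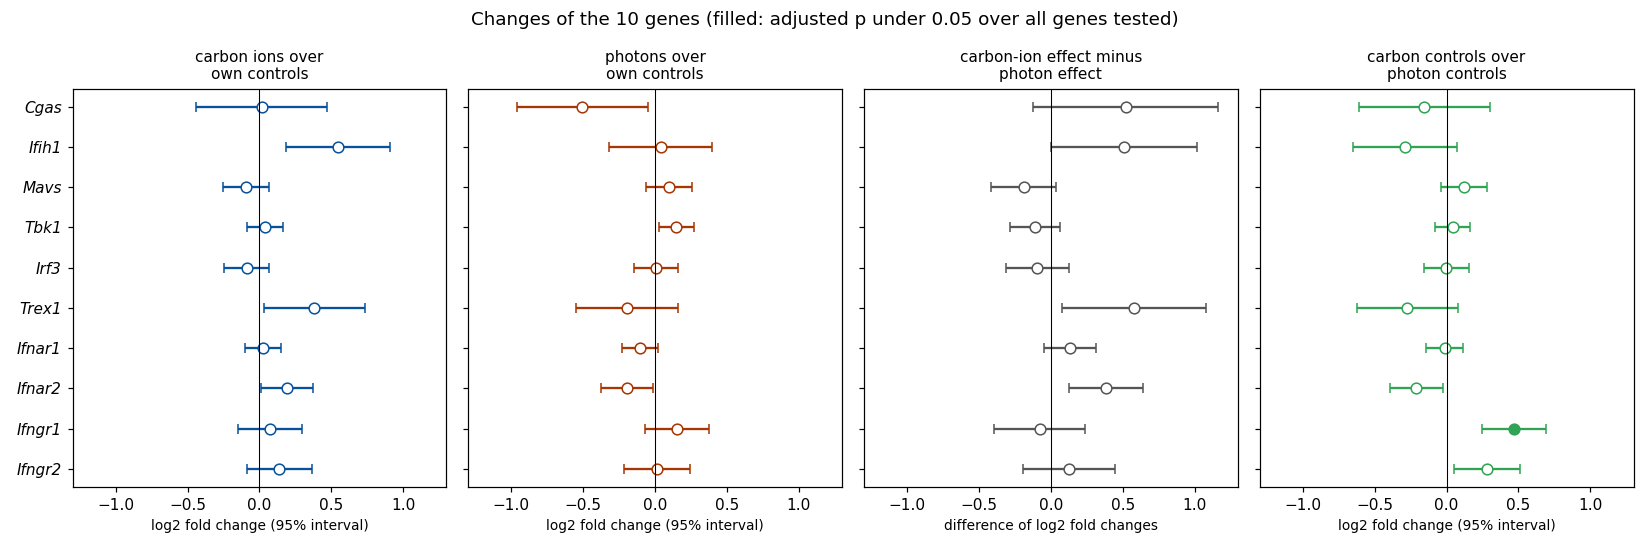
Log2 fold changes of the 10 genes (rows) with 95% intervals for carbon ions over their controls, photons over their controls, the carbon-ion effect minus the photon effect, and carbon-arm controls over photon-arm controls; filled points passed an adjusted p of 0.05 over all genes. The only filled point is Ifngr1 in the comparison of controls, at 0.47.

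Ifih1, the RNA sensor MDA5, had the largest difference of the 10 after carbon ions. It lay between 10.5 and 19.7 CPM (median 12.6) in the carbon-arm controls and between 11.2 and 33.8 CPM (median 17.3) in the carbon-irradiated tumours. The groups overlapped, with 7 of 8 irradiated libraries above the control median. Its log2 fold change was 0.55 (SE 0.18, 95% interval 0.19 to 0.91, unadjusted p 0.0041, adjusted p 0.52 in edgeR), so it did not pass. Without replicate 8 of the irradiated group, which held 33.8 CPM, the log2 fold change was 0.38, and without replicate 5 of the controls, at 19.7 CPM, it was 0.65. Among M titles alone the value was 0.48, and among D titles alone, a comparison added after the data were seen, 0.62. In the photon arm Ifih1 lay between 13.0 and 20.9 CPM (median 14.8) in controls and between 12.1 and 25.2 CPM (median 16.2) after irradiation, with a log2 fold change of 0.04 (SE 0.18, adjusted p 0.92 in edgeR). The effects of the beams on Ifih1 differed by 0.51 (SE 0.25, interval -0.0018 to 1.01, adjusted p 0.38 in edgeR). Without carbon-irradiated replicate 8 that difference was 0.34, and without carbon-arm control replicate 5 it was 0.61.

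Cgas, the DNA sensor, was close to level after carbon ions and lower in mean after photons. It lay between 1.95 and 3.49 CPM (median 2.64) in the carbon-arm controls and between 1.56 and 4.63 CPM (median 2.62) in the carbon-irradiated tumours, with 4 of 8 above the control median. The log2 fold change of 0.01 (SE 0.22) turned to -0.14 without replicate 8, the highest library. In the photon arm the values were 1.58 to 3.86 CPM (median 3.27) in controls and 1.44 to 2.88 CPM (median 2.14) after irradiation. All 8 photon-irradiated tumours lay below the control median, though 3 controls lay within the irradiated range. The log2 fold change was -0.51 (SE 0.22, interval -0.96 to -0.05, unadjusted p 0.031, adjusted p 0.18 in edgeR) and did not pass. In the same comparison the T cell score, the mean log2 CPM of 7 T cell genes, fell by 0.78 (exact permutation test, p 0.00171, adjusted p 0.0281 over 21 score comparisons; 6 of the 7 were negative and 2 passed as lower, while 1 passed as higher). The macrophage score differed by -0.46 (exact permutation p 0.0301, adjusted p 0.0904). The summed T cell markers lay between 6.76 and 14.0 CPM in photon-arm controls and between 4.24 and 8.24 CPM after photons, the summed macrophage markers between 505 and 969 CPM and between 344 and 650 CPM. In the same comparison the fibroblast score differed by -0.46 (exact permutation p 0.0359, adjusted p 0.0942; 8 of 8 genes negative, 1 called) and the skeletal muscle score by -4.00 (exact permutation p 0.0246, adjusted p 0.0859; 6 of 6 genes negative, none called). The summed muscle markers ran from 3.15 to 1264 CPM in photon-arm controls and from 0.96 to 307 CPM after photons. The part of these cells in the Cgas values was not tested.

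Mavs, the adaptor of the RNA sensor, and Tbk1 and Irf3, the kinase and transcription factor that both routes reach, had narrow ranges and none passed. Mavs means were 37.7 ± 3.86 and 35.4 ± 3.97 CPM in the carbon arm and 34.7 ± 3.27 and 37.2 ± 3.81 CPM in the photon arm, controls first (SD, n = 8), and its log2 fold changes were -0.09 (SE 0.08; -0.04 without carbon-irradiated replicate 1) and 0.10 (SE 0.08). Irf3 means were 33.0 ± 1.56, 31.1 ± 3.41, 33.1 ± 3.80 and 33.2 ± 3.26 CPM in the same order, with log2 fold changes of -0.09 (SE 0.08; -0.05 without carbon-irradiated replicate 4) and 0.00 (SE 0.08). For Irf3 after photons the 95% interval ran from -0.15 to 0.16, a fold of 0.90 to 1.12. Tbk1 was the tightest of the 10 after photons: it lay between 29.1 and 37.02 CPM (median 33.4) in photon-arm controls and between 33.3 and 39.9 CPM (median 37.6) in photon-irradiated tumours, 7 of 8 above the control median. Its log2 fold change of 0.15 (SE 0.06, interval 0.02 to 0.27, unadjusted p 0.021, adjusted p 0.15 in edgeR) did not pass over all genes. After carbon ions it was 0.04 (SE 0.06), 0.01 without carbon-irradiated replicate 8 and 0.06 without replicate 5. Irf3 overlaps Bcl2l12 on the opposite strand, and whether the authors counted by strand is not given in the sources used here. Bcl2l12 itself fell after photons (log2 fold change -0.37, SE 0.08, adjusted p 0.011 in edgeR), and Irf3 and Bcl2l12 had a correlation of 0.50 over the 32 libraries after group means were removed.

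Trex1, the exonuclease that removes cytosolic DNA, had a positive value in the carbon arm and a negative one in the photon arm, and passed in neither. It lay between 6.12 and 9.34 CPM (median 7.93) in carbon-arm controls and between 7.62 and 16.7 CPM (median 8.83) after carbon ions. Of the irradiated libraries 7 of 8 exceeded the control median, and replicate 8 was the highest, with the next at 12.3 CPM. The log2 fold change was 0.38 (SE 0.17, unadjusted p 0.035, adjusted p 0.80 in edgeR), and 0.25 without replicate 8. In the photon arm it lay between 6.81 and 12.5 CPM (median 9.39) in controls and between 5.03 and 14.3 CPM (median 8.01) after irradiation, a log2 fold change of -0.20 (SE 0.17). This value moved with single libraries: it was -0.35 without photon-irradiated replicate 4, the highest, and -0.11 without replicate 3, the lowest. The effects of the beams differed by 0.58 (SE 0.25, interval 0.08 to 1.08, unadjusted p 0.025, adjusted p 0.31 in edgeR). Trex1 lies within the span of Atrip on the same strand, so reads from shared sequence could be split between them; Atrip had a log2 fold change of -0.06 after carbon ions and -0.25 after photons (adjusted p 0.078 in edgeR).

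Neither chain of the type I interferon receptor passed in any comparison. Ifnar1 lay between 130 and 169 CPM (median 141) in carbon-arm controls and between 128 and 168 CPM (median 146) in the irradiated tumours of that arm, for a log2 fold change of 0.03 (SE 0.06, interval -0.10 to 0.15). In the photon arm it lay between 138 and 169 CPM (median 145) and, after irradiation, between 119.3 and 146 CPM (median 135), with 7 of 8 below the control median and a log2 fold change of -0.11 (SE 0.06, adjusted p 0.32 in edgeR). Without photon-arm control replicate 4, whose 169 CPM stood apart, that value was -0.06. Ifnar2, the chain that binds type I interferon most tightly, ranged from 33.1 to 43.2 CPM (median 36.5) in carbon-arm controls and from 32.8 to 50.5 CPM (median 42.9) after carbon ions. In the photon arm it ranged from 36.9 to 51.2 CPM (median 42.4) in controls and from 26.8 to 41.6 CPM (median 38.4) after irradiation. Thus 6 of 8 carbon-irradiated libraries were above, and 8 of 8 photon-irradiated libraries were below, the median of their own controls, with overlapping ranges in both arms. The log2 fold changes were 0.19 (SE 0.09, unadjusted p 0.041, adjusted p 0.83 in edgeR) and -0.20 (SE 0.09, unadjusted p 0.036, adjusted p 0.19 in edgeR), and the difference between them was 0.39 (SE 0.13, interval 0.13 to 0.64, unadjusted p 0.0045, adjusted p 0.19 in edgeR). That difference ranked 479 among the 20474 genes by p. Leaving out photon-irradiated replicate 3, at 26.8 CPM, made the photon value -0.13 and the difference 0.32. Over the 32 libraries, with group means removed, Ifnar2 had r 0.50 with the endothelial score, the mean log2 CPM of 6 endothelial genes (rho 0.49, permutation p 0.00962 and 0.00659, adjusted p 0.043 and 0.042; 0.34 to 0.78 within groups, 0.43 without the farthest 2). Under upper-quartile scaling r was 0.44 and did not pass (adjusted p 0.080). The endothelial score fell by 0.55 after photons (exact permutation p 0.00668, adjusted p 0.0281). It was also lower in the carbon-arm than in the photon-arm controls, and its part in the Ifnar2 values was not tested. Ifnar2 was also lower in mean in the carbon-arm than in the photon-arm controls (37.01 ± 3.60 against 42.8 ± 4.64 CPM, log2 difference -0.21, adjusted p 0.14 in edgeR), and the irradiated groups stood in the reverse order at 42.2 ± 6.11 and 37.3 ± 4.53 CPM (SD, n = 8).

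Of the interferon gamma receptor chains, Ifngr1 differed between the untreated tumours of the arms. Ifngr1, which binds the ligand, lay between 165 and 235 CPM (median 218) in carbon-arm controls and between 141 and 181 CPM (median 153) in photon-arm controls. All 8 carbon-arm controls exceeded the photon-arm median, and only replicate 5, at 165 CPM, fell within the photon-arm range. The log2 difference between the untreated groups was 0.47 (SE 0.11, interval 0.25 to 0.69, fold 1.39, adjusted p 0.0065 in edgeR; exact permutation p 0.000311), and it was the only member to pass in this comparison, in which 1871 genes passed, 9.14% of those tested. Ifngr2, the signalling chain, lay between 108 and 160 CPM (median 130) in carbon-arm controls and between 101 and 126 CPM (median 107) in photon-arm controls, again with all 8 above the photon-arm median; its difference of 0.28 (SE 0.11, adjusted p 0.11 in edgeR) passed only when the untreated groups were fitted alone (adjusted p 0.025). The epithelial score was higher by 0.53 (exact permutation p 0.00575, adjusted p 0.0281) and the endothelial score lower by 0.46 (difference -0.46, exact permutation p 0.00591, adjusted p 0.0281) in the carbon-arm controls. The fibroblast score differed by -0.49 (exact permutation p 0.0427, adjusted p 0.0997; 8 of 8 genes negative, 2 called lower) and the T cell score by -0.52 (exact permutation p 0.0480, adjusted p 0.101; 6 of 7 genes negative, none called). The part of these cells in the receptor values was not tested. Titles beginning with D occur only in the carbon arm (4 controls and 3 irradiated); among M titles alone Ifngr1 differed by 0.49 (adjusted p 0.036 in edgeR) and Ifngr2 by 0.22 (adjusted p 0.32).

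Neither gamma receptor chain passed after irradiation. Ifngr1 lay between 159 and 308 CPM (median 223) in carbon-irradiated tumours, for a log2 fold change of 0.07 (SE 0.11, interval -0.15 to 0.30), and between 109 and 202 CPM (median 181) after photons, a log2 fold change of 0.15 (SE 0.11, interval -0.07 to 0.37, 7 of 8 above the control median, adjusted p 0.44 in edgeR). The photon value was 0.23 without replicate 3, whose 109 CPM stood below the other irradiated libraries. Ifngr2 lay between 97.2 and 186 CPM (median 153) after carbon ions and between 75.8 and 128 CPM (median 109) after photons, with log2 fold changes of 0.14 (SE 0.11) and 0.01 (SE 0.11). The carbon value was 0.08 without irradiated replicate 2 and 0.21 without replicate 1.

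The rest of the pathway was read from 54 further genes in 8 lists, of which 46 were tested. After carbon ions 40 of the 46 had a positive and 6 a negative log2 fold change, with a median of 0.11 beside 0.01 for all genes, of which 51.5% were positive, and none passed. After photons 19 were positive and 27 negative (median -0.09), of which 1 rose and 2 fell, beside 49.9% positive and 3.81% called over all genes. Sting1, the receptor of the cGAS messenger, fell after photons from 47.6 ± 7.49 to 34.7 ± 4.81 CPM (SD, n = 8; log2 fold change -0.46, SE 0.11, adjusted p 0.020 in edgeR), with 8 of 8 irradiated libraries below the control median. Photon-arm control replicate 3 held the highest value, 60.9 CPM, and without it the log2 fold change was -0.39 with adjusted p 0.064; Sting1 passed in the other 31 of 32 fits that left out 1 library. In the carbon arm Sting1 was at 33.3 ± 4.91 and 33.0 ± 5.32 CPM, a log2 fold change of -0.02 (SE 0.11), and the effects differed by 0.44 (SE 0.16, adjusted p 0.22 in edgeR), so that a difference between beams did not pass. The untreated groups already differed, with Sting1 lower in the carbon arm by a log2 difference of -0.51 (SE 0.11, adjusted p 0.0037 in edgeR). In its list of 6 DNA sensors and STING, Aim2, an inflammasome DNA sensor, was higher in the carbon-arm controls (5.09 ± 1.40 against 2.49 ± 1.06 CPM, log2 difference 1.03, SE 0.25, adjusted p 0.0080 in edgeR). Between these controls the epithelial and endothelial scores also differed, and the fibroblast and T cell scores had negative values that did not pass, as given above. The part of these cells in the control differences of Sting1, Aim2 and, below, Socs3 was not tested.

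Myd88, an adaptor of Toll-like receptors listed with the endosomal ones, fell after photons (log2 fold change -0.33, SE 0.10, adjusted p 0.046 in edgeR). It lay below the control median in 7 of 8 irradiated libraries. The call passed in 7 of the 32 fits that left out 1 library. It did not pass without the filter on low counts (adjusted p 0.098), among M titles alone (0.069) or with only the photon groups fitted (0.062), with a log2 fold change of -0.33 in each. It alone passed among the 5 genes of its list, and all 5 had negative values. The endothelial and T cell scores fell in the same comparison, with the values given above. The macrophage score (8 of 8 genes negative, 2 called lower) and the fibroblast and skeletal muscle scores had negative values, also given above. The part of these cells in the Sting1 and Myd88 values was not tested. Usp18, which shuts off signalling at IFNAR2 and is itself induced by interferon, rose after photons from 2.60 ± 0.89 to 6.64 ± 4.68 CPM (log2 fold change 1.35, SE 0.38, adjusted p 0.041 in edgeR), passing in 22 of the 32 such fits but neither without the filter on low counts (adjusted p 0.057) nor among M titles alone (0.058), where its log2 fold change was 1.36 in each. It went from 3.28 ± 0.96 to 9.57 ± 5.84 CPM after carbon ions (1.54, SE 0.38, adjusted p 0.33), and over both beams it rose by 1.45 (SE 0.27, adjusted p 0.0076 in edgeR). Irf7, the interferon-induced factor that amplifies type I interferon, rose over both beams by 1.46 (SE 0.32, adjusted p 0.025 in edgeR): it was at 7.61 ± 2.71 and 27.2 ± 25.8 CPM in the carbon arm and at 9.19 ± 5.36 and 19.6 ± 16.9 CPM in the photon arm. Adar, which edits double-stranded RNA and keeps MDA5 from responding to it, rose over both beams by 0.28 (SE 0.07, adjusted p 0.0498 in edgeR), a call that passed in 11 of the 32 fits and was lost under upper-quartile scaling (0.30, adjusted p 0.062) and without the filter (0.28, adjusted p 0.072). Among M titles alone, with fewer libraries, none of the 3 passed over both beams (Usp18 1.56, adjusted p 0.061; Irf7 1.48, adjusted p 0.10; Adar 0.32, adjusted p 0.079).

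Other genes of the circuit did not pass after irradiation. Of the 6 RNA sensors and adaptors all 6 were positive in each arm and none passed; Rigi, the sensor RIG-I, had log2 fold changes of 0.44 (SE 0.17) and 0.29 (SE 0.17), and Trim25, the ligase that activates RIG-I, 0.24 (SE 0.09) in both arms, with adjusted p 0.063 over both beams in edgeR. Stat2, which carries the signal from the type I receptor, had values of 0.41 (SE 0.17) after carbon ions and 0.37 (SE 0.17) after photons, with adjusted p 0.10 over both beams in edgeR. Socs3, a feedback inhibitor of JAK signalling, was lower in the carbon-arm than in the photon-arm controls (log2 difference -0.56, SE 0.13, adjusted p 0.0070 in edgeR; -0.44 with adjusted p 0.14 among M titles alone). Of 11 genes for interferons and the type III receptor only 3 passed the filter on low counts and none was called; Ifnlr1 and Il10rb, the chains of the type III receptor, had values over both beams of 0.19 (SE 0.12) and 0.05 (SE 0.06). Ifnb1, the type I interferon that IRF3 induces, had no count in all 8 controls of each arm and reached at most 1.80 estimated counts after carbon ions and 1.06 after photons, so its messenger was not measurable at this depth.

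**Figure D3:**
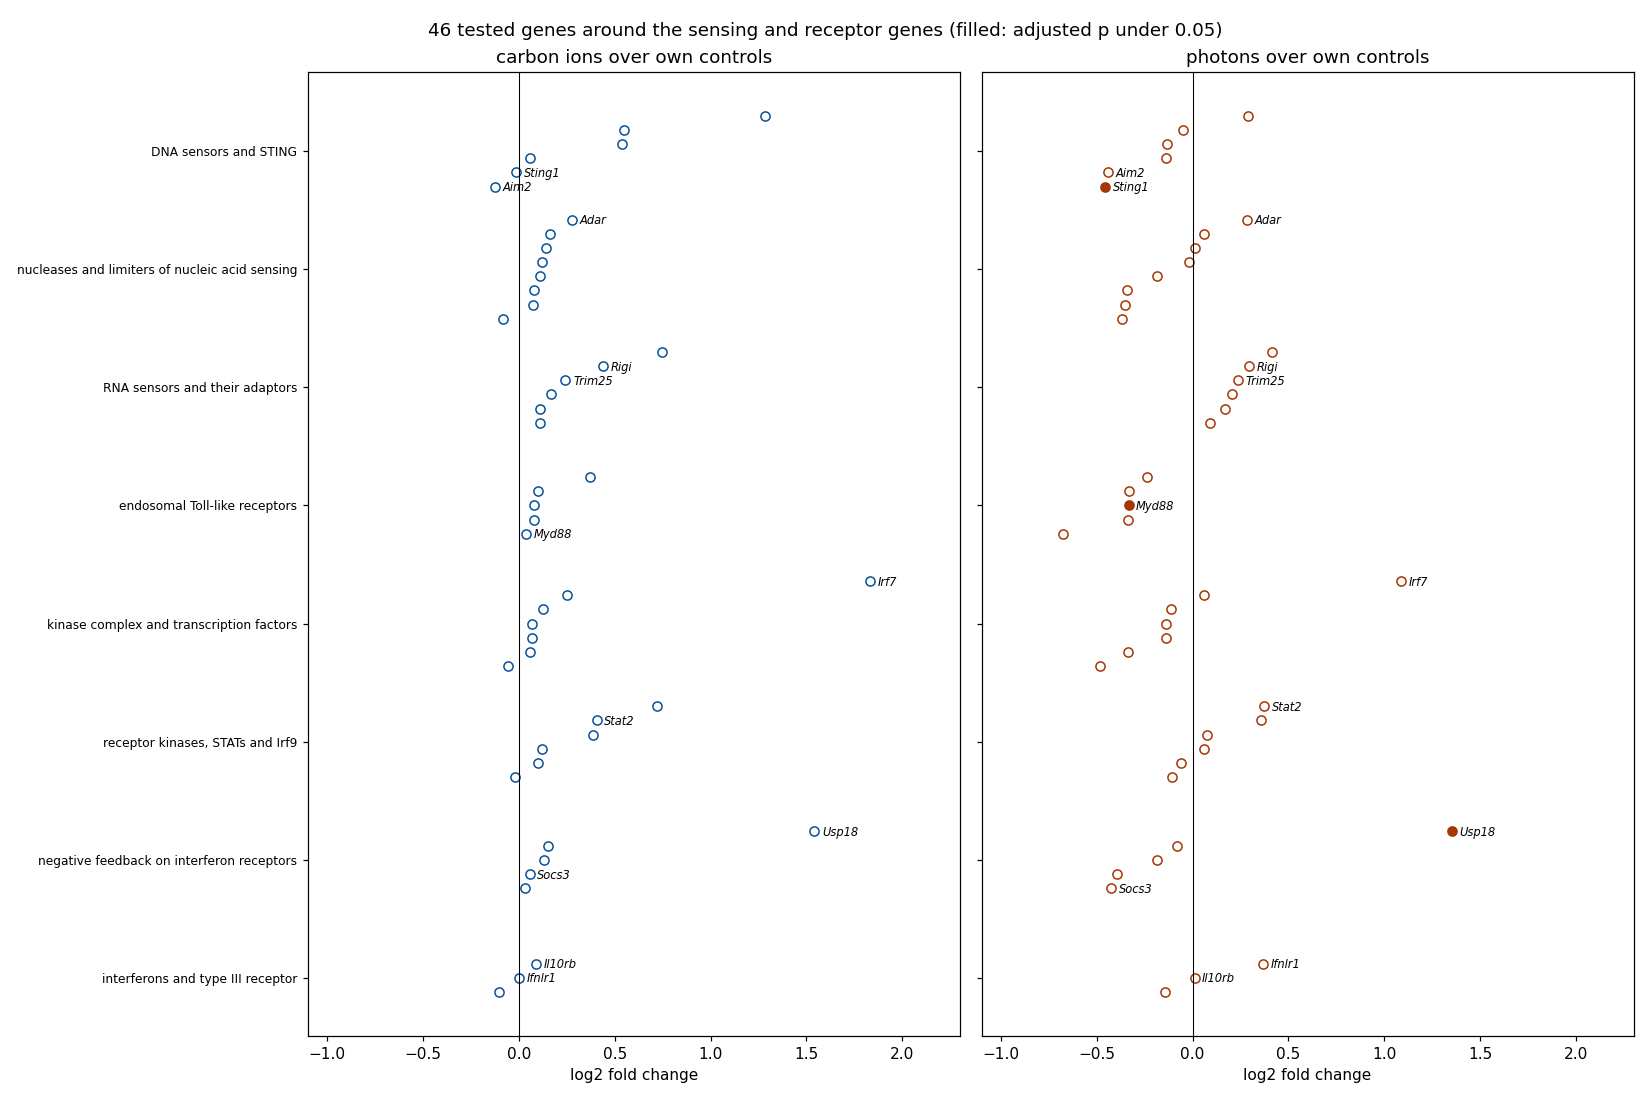
Log2 fold changes (x axis) of the 46 tested pathway genes in 8 lists (rows) after carbon ions and after photons; each point is a gene, filled where the adjusted p over all genes was under 0.05, and genes described in the text are labelled. Irf7 and Usp18 lie farthest to the right in both panels, and Sting1, Myd88 and Usp18 are the filled points after photons.

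Tumours of a group differed widely in their interferon-stimulated genes, and 3 of the 10 genes followed that spread. A score of 12 such genes (the mean log2 CPM of Isg15, Ifit1, Rsad2 and 9 others, none of them a member) was higher after carbon ions by 1.24 (exact permutation p 0.00606, adjusted p 0.0281), while the photon difference of 0.55 did not pass (exact permutation p 0.198, adjusted p 0.379). By gene, 12 of 12 were positive after carbon ions (median log2 fold change 1.28) and 11 of 12 after photons (median 0.81), and none passed in either arm. Over both beams 7 of the 12 rose, and none passed for the difference of the beams, so a difference between them was not shown. The mean scores were 2.10 ± 0.45 and 3.34 ± 0.96 in the carbon arm and 2.16 ± 0.56 and 2.71 ± 1.01 in the photon arm. After group means were removed, Ifih1 had a Pearson r of 0.84 and a Spearman rho of 0.84 with the score over 32 libraries (permutation within groups, p 1e-05 for each, the smallest that 100000 permutations can give; adjusted p 0.000575 over the 70 relations with scores and 45 between members). Without the libraries farthest out, carbon-irradiated replicate 8 and photon-irradiated replicate 4, r was 0.78, and within the groups it was 0.82 to 0.88. Trex1 had r 0.68 and rho 0.55 (permutation p 0.00025 and 0.00416, adjusted p 0.0046 and 0.0302), with r 0.51 without those 2 libraries and 0.39 to 0.89 within groups. Cgas had r 0.55 and rho 0.48 (permutation p 0.00178 and 0.00831, adjusted p 0.0158 and 0.0499), with r 0.42 without them and 0.25 to 0.84 within groups; when group means were kept its r was 0.34 (adjusted p 0.18). Among the libraries with M titles alone, r with the score was 0.85 for Ifih1, 0.75 for Trex1 and 0.57 for Cgas. The other 7 members had r from -0.36 (Ifngr1) to 0.23 (Tbk1), none past an adjusted p of 0.05. Within groups some of their signs were opposed. Ifnar2 had r 0.89 in photon-arm controls and -0.71 after carbon ions. Tbk1 had 0.65 after carbon ions and -0.74 after photons. Ifngr1 ran from -0.79 after carbon ions to 0.16 after photons. Values within single groups were not tested.

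**Figure D4:**
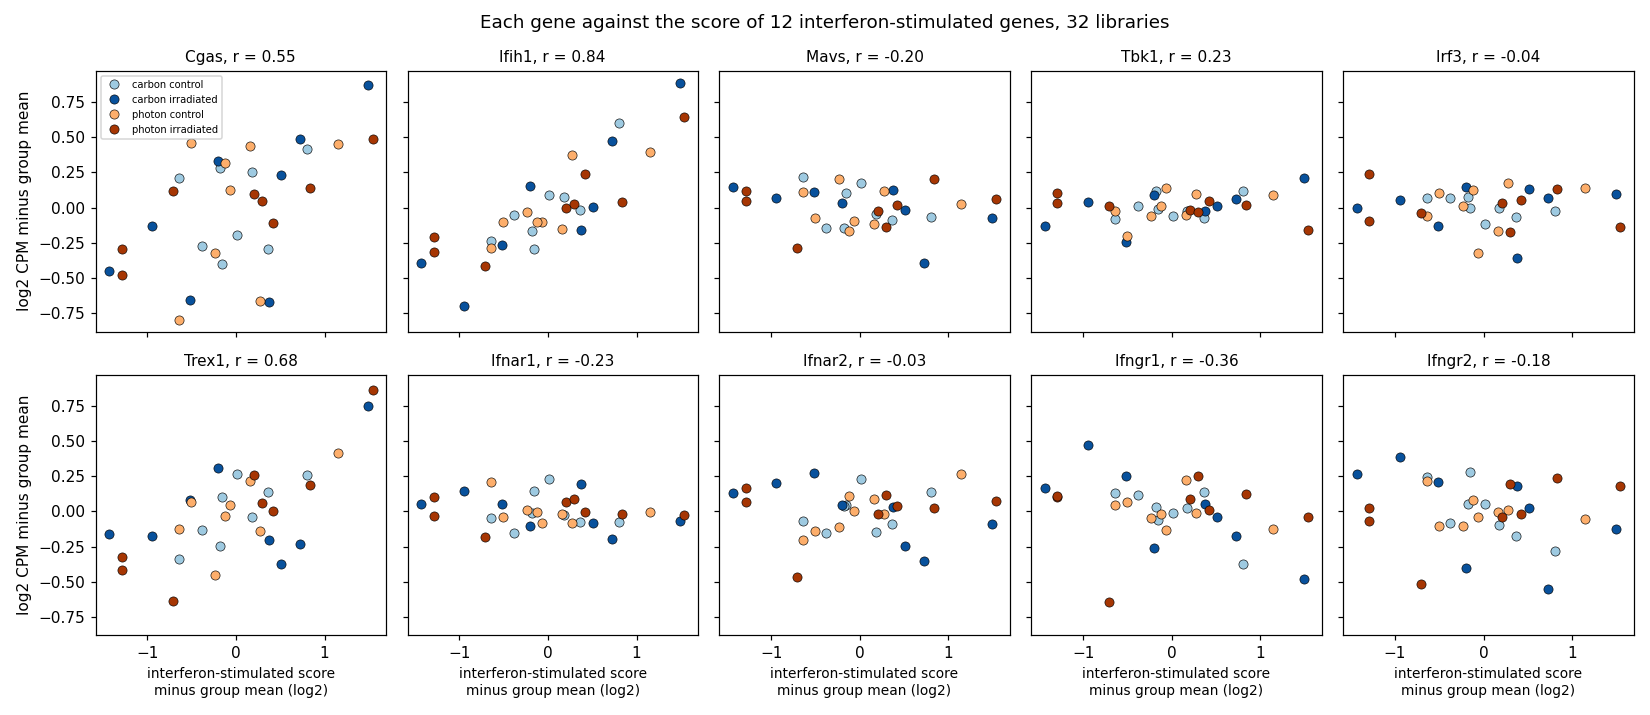
Each gene's log2 CPM (y axis) against the score of 12 interferon-stimulated genes (x axis), both minus the group mean, in 32 libraries coloured by group. Ifih1 (r = 0.84), Trex1 (0.68) and Cgas (0.55) climb with the score, and the adaptor, kinase, transcription factor and receptor chains do not pass the test.

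Markers of other cells varied with the same sensing genes. Trex1 was most tightly related to the macrophage score (r 0.83, rho 0.82, permutation p 1e-05 for each, adjusted p 0.000575; 0.77 to 0.89 within groups and 0.77 without the farthest 2 libraries). Trex1 also passed with the endothelial score (r 0.51, rho 0.62, permutation p 0.00704 and 0.0004, adjusted p 0.038 and 0.0058; 0.53 without the farthest 2), the fibroblast score (r 0.52, rho 0.44, permutation p 0.00194 and 0.0127, adjusted p 0.016 and 0.064; 0.36 without the farthest 2) and the T cell score (r 0.44, rho 0.52, permutation p 0.0106 and 0.00373, adjusted p 0.045 and 0.030; 0.51 without the farthest 2). The endothelial relation did not pass under upper-quartile scaling (0.47, adjusted p 0.058) or among M titles alone (0.46, adjusted p 0.12). Trex1 with the T cell score had r 0.21 in carbon-arm controls and 0.20 after carbon ions. In photon-arm controls and after photons it was 0.83 and 0.80. Cgas had r 0.62 with the macrophage score and 0.62 with the T cell score (rho 0.65 and 0.71, permutation p 0.00028 and 0.00053, adjusted p 0.0046 and 0.0061; r without the farthest 2 libraries 0.67 and 0.64). Within groups its r with the macrophage score was 0.14 in the carbon-arm controls, 0.45 after photons, 0.75 after carbon ions and 0.89 in the photon-arm controls, and with the T cell score 0.36 to 0.88. Ifih1 had r 0.58 and 0.64 with them (rho 0.65 and 0.71, permutation p 0.00089 and 0.00032, adjusted p 0.0093 and 0.0046; 0.47 and 0.57 without the farthest 2). With the macrophage score its r was 0.17 in the photon-arm controls and 0.66 to 0.82 in the other groups, and when group means were kept it was 0.42 and did not pass (adjusted p 0.075). Ifih1 also had r 0.53 with the fibroblast score (rho 0.36, permutation p 0.00304 and 0.0534, adjusted p 0.023 and 0.15; 0.37 without the farthest 2), which did not pass with group means kept (0.40, adjusted p 0.090) or among M titles alone (0.54, adjusted p 0.051). Among M titles alone r with the macrophage score was 0.84 for Trex1, 0.68 for Cgas and 0.64 for Ifih1. Ifngr1 and Ifngr2 instead had r 0.50 and 0.53 with the epithelial score (rho 0.45 and 0.58, permutation p 0.00871 and 0.00555, adjusted p 0.041 and 0.032, and for rho 0.083 and 0.021; 0.41 and 0.54 without the farthest 2). Under upper-quartile scaling these were 0.41 and 0.44 and no longer passed (adjusted p 0.097 and 0.085). Tbk1 had r -0.50 with that score (rho -0.44, permutation p 0.00888 and 0.0201, adjusted p 0.041 and 0.083; -0.49 without the farthest 2), but -0.91 in the carbon-irradiated group against 0.00 to -0.37 in the others. That relation did not pass under upper-quartile scaling (-0.46, adjusted p 0.085), among M titles alone (-0.53, adjusted p 0.11) or with group means kept (-0.29, adjusted p 0.26).

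**Figure D5:**
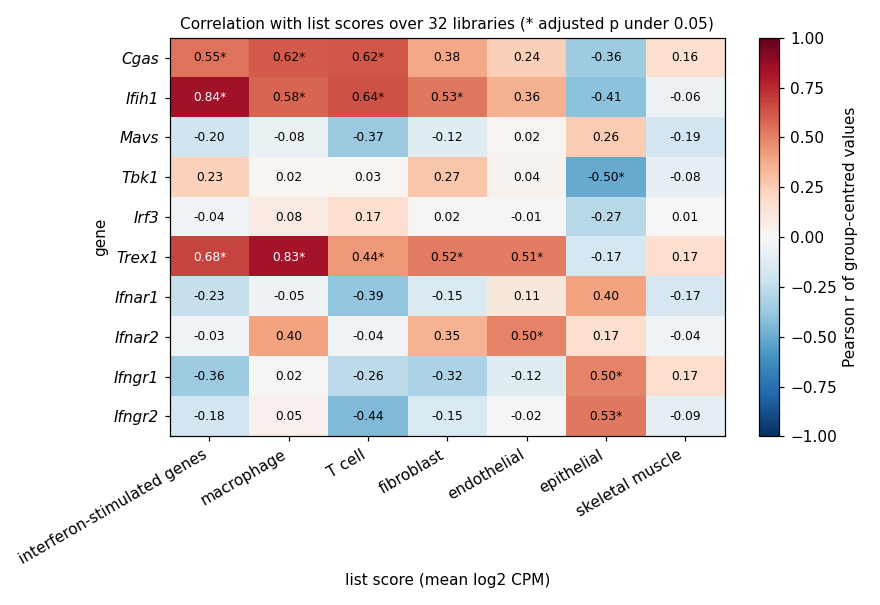
Pearson r between each gene (rows) and 7 list scores (columns) over 32 libraries after group means were removed; red is positive, blue negative, and an asterisk marks an adjusted p under 0.05. Red cells with an asterisk are Cgas, Ifih1 and Trex1 for interferon-stimulated, macrophage and T cell genes, and Ifih1 and Trex1 for fibroblast genes. Others are Trex1 and Ifnar2 for endothelial genes and both gamma receptor chains for epithelial genes. Tbk1 for epithelial genes is blue with an asterisk.

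Among the members themselves, Ifih1 and Trex1 had r 0.64 (rho 0.56, permutation p 0.0003, adjusted p 0.0046; 0.44 without the farthest 2 libraries). Among the receptor chains, Ifngr2 had r 0.70 with Ifngr1 (rho 0.55, permutation p 0.00051, adjusted p 0.0061; r 0.65 without the farthest 2) and 0.70 with Ifnar1 (rho 0.67, permutation p 6e-05, adjusted p 0.0023; r 0.75 without the farthest 2). Within groups Ifngr2 with Ifngr1 had r 0.37 in carbon-arm controls and 0.20 in photon-arm controls, against 0.77 after carbon ions and 0.86 after photons. Ifngr1 with Ifnar2 did not pass (r 0.45, rho 0.28, permutation p 0.0313 and 0.152, adjusted p 0.11 and 0.34) and had opposite signs in the groups, from -0.61 in the carbon-arm controls to 0.94 after photons. Ifngr2 with Ifnar2 had r 0.54 (rho 0.43, permutation p 0.00732 and 0.0242, adjusted p 0.038 and 0.096), but 0.24 without carbon-irradiated replicate 1 and photon-irradiated replicate 3, and Ifnar1 with Ifnar2 was -0.42 in the photon-arm controls. Relations between receptor chains depended in part on the scaling: under upper-quartile scaling Ifnar1 with Ifngr2 was 0.41 (adjusted p 0.077) and Ifnar1 with Ifnar2 went from 0.53 to 0.18 (adjusted p 0.48). Of all these relations 28 passed. Ifnar2, Ifnar1 and Ifngr2 are neighbours on chromosome 16, between 91372783 and 91565623 (GRCm38), whereas Ifngr1 lies on chromosome 10 from 19591949 to 19610229.

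The genes most like each member, by r of group-centred log2 CPM over the 32 libraries among 11532 genes, are given as a description with no test. These 11532 had a mean log2 CPM of at least 2, without predicted genes or genes lacking a settled name. Genes that overlap the member were passed over. For Ifih1 they were Iigp1, an interferon-induced GTPase (r 0.90; 0.77 to 0.96 within groups), and H2-Q4, a class I histocompatibility gene (0.86). Trex1 was closest to Cd68, a macrophage lysosomal protein that is also in the macrophage list (0.87), and Ifitm3, an interferon-induced membrane protein (0.85). Cgas was closest to Ccr2, the chemokine receptor of inflammatory monocytes (0.83; 0.69 to 0.88 within groups), and Arhgap30 (0.82). Ifngr1 was closest to Tmbim4 (0.88) and Cd14, the lipopolysaccharide co-receptor (0.87), and Ifngr2 to Rnf181 (0.89) and Etv5 (0.88). Ifnar1 paired with Glmp (0.90) and Zfpl1 (0.88), Ifnar2 with Copb1, a coat protein of Golgi vesicles (0.86), and Hmox2 (0.85), Mavs with Sfxn3 (0.88) and Cdc42ep1 (0.88), and Irf3 with Gps2 (0.79) and Zscan29 (0.78). Tbk1 had the weakest best partners, Sirt3 (0.67) and Nfxl1 (0.67).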

How the data were processed

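The files hold estimated counts per gene for 32 libraries, prepared with a stranded mRNA kit from tumour RNA of integrity number above 7.0, per the labels' protocols. The estimated (expected) counts were deposited by the authors; the submitters' processing notes name FastQC 0.12.0, Trimmomatic 0.32, RSEM 1.3.3 and the build mm10. The gene annotation and the strand setting are not given in the sources used here. Groups follow the treatment label, and replicate numbers follow the order of deposition. Counts were rounded to whole numbers and fitted in edgeR 4.0.16 (R 4.3.3) with 1 coefficient per group, TMM scaling and filterByExpr with a minimum count of 10; edgeR's quasi-likelihood test gave 5 contrasts, with p-values adjusted by Benjamini-Hochberg over 20474 genes at a threshold of 0.05. Fold changes are log2 values; CPM uses TMM-scaled totals, and log2 CPM a prior count of 2. Exact permutation tests are two-sided over 12870 assignments of 8 against 8, and their smallest possible p is 0.000155. Correlations used 100000 permutations within groups, with Benjamini-Hochberg adjustment over the 70 relations with scores and the 45 between members. Lengths and coordinates come from GENCODE M21 (GRCm38). DESeq2 1.42.0, other scalings, no filter, subsets of libraries and leaving out each library were alternatives. The fit was also run on simulated counts, and the outcome is not given here. The members, gene lists, tests and the marker lists were chosen with earlier results of these data known. The rule for named genes took the 10 members, every pathway gene past the threshold in any contrast, otherwise the 2 of a list with the smallest p over both beams, and Sting1, Rigi and Irf7 always; 1 further gene of the lists is not reported here.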

Additional observations from a re-analysis of the deposited data

Results flagged for a closer look

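Of 68 sets of 8 libraries (10 genes and 7 scores in 4 groups), 9 held a library whose gap to its nearest neighbour exceeded 0.526 of the range, the 95% critical value of Dixon; chance gives about 1 in 20 such sets. In photon-irradiated replicate 3, which also had the lowest total count, 3 receptor chains were low: Ifnar2 at 26.76 CPM (next 36.56), Ifngr1 at 108.7 CPM (next 164.9) and Ifngr2 at 75.79 CPM (next 103.5). Carbon-arm control replicate 5 was high in Ifih1 at 19.72 CPM (next 13.75) and low in Ifngr1 at 164.5 CPM (next 204.7). Mavs was low in carbon-irradiated replicate 1 at 26.78 CPM, and Ifnar1 was high in photon-arm control replicate 4 at 169.1 CPM. The endothelial score was high in photon-arm control replicate 3 at 6.047 and in photon-irradiated replicate 5 at 5.555.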

How the results depend on the processing

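No paired analysis was possible because the labels give no replicate numbers; those used here name libraries in accession order. No member passed the threshold after carbon ions, after photons, over both beams or for the difference of the beams under any alternative run, and Ifngr1 passed in the comparison of controls in all of them; Ifngr2 joined it when only the 2 groups were fitted. Counts of all genes called moved more: DESeq2 called 17 after carbon ions, 1518 after photons, 468 over both beams and 270 for the difference; without the filter on low counts 431 passed after photons and 4 for the difference; upper-quartile scaling gave 94 for the difference and 566 higher against 394 lower genes after photons, beside 351 and 430; M titles alone, with fewer libraries, gave 9 over both beams, 1 for the difference and 973 between controls. Leaving out 1 library gave 0 to 5 after carbon ions, 239 to 1656 after photons, 65 to 397 over both beams, 5 to 108 for the difference and 1178 to 2196 between controls; the lowest photon count came without photon-arm control replicate 3 and the highest without replicate 2. Relations past the threshold numbered 28, and 18 among M titles alone. Values near 0 changed sign: Ifnar2 over both beams (0.0035 with upper-quartile scaling, 0.0083 with DESeq2's size factors, 0.0087 in DESeq2, 0.041 among M titles), Irf3 between controls (0.0030 with DESeq2's size factors, 0.00045 in DESeq2, 0.020 among M titles, 0.0081 with 2 groups), Cgas after carbon ions (-0.10 among M titles, -0.049 as a mean of log2 CPM) and Ifnar1 over both beams (0.029 among M titles). Among the D titles of the carbon arm, a comparison added after the data were seen, Irf3 was 0.0089, Ifnar1 -0.10 and Ifngr2 -0.081. The correlation with the interferon-stimulated score changed sign for Irf3 (0.064 with upper-quartile scaling), Ifnar2 (0.053 with group means kept, 0.11 among M titles) and Ifngr2 (0.051 with group means kept). With 1 library left out, the ranges that crossed 0 were, for carbon ions, Cgas -0.14 to 0.090, Ifngr1 -0.0020 to 0.14 and Ifnar1 -0.0041 to 0.063; for photons, Irf3 -0.029 to 0.035, Ifngr2 -0.015 to 0.082 and Ifih1 -0.066 to 0.11; over both beams, Ifnar2 -0.021 to 0.030 and Mavs -0.0095 to 0.032; between controls, Irf3 -0.027 to 0.030 and Ifnar1 -0.036 to 0.038. Causes of these moves were not tested. Cgas had 27.7 to 169 estimated counts per library, which limits its precision.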
